A study of Homo sapiens with 15 samples.

Results

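The transcripts described here are those of 42 human genes that encode 2-oxoglutarate-dependent dioxygenases other than the TET enzymes, taken by symbol from a table of 56624 gene symbols. They comprise JmjC histone lysine demethylases and related JmjC hydroxylases, the prolyl hydroxylases of hypoxia-inducible factor (HIF), the collagen prolyl and lysyl hydroxylases with the aspartyl hydroxylase ASPH, the ALKBH family with FTO, and a few metabolic and ribosomal enzymes. The cells were TF-1, an established erythroleukaemia line of human origin whose growth depends on GM-CSF or related cytokines, with RNA sequenced in 5 groups of 3 libraries. The groups were base-edited TF-1 lines with the genotypes IDH1R132H, IDH2R140Q, IDH2R140W and IDH2R172K, and unedited Parental cells. The edited lines grew without GM-CSF and the Parental cells with 2 ng/ml of it, so genotype and medium cannot be told apart against Parental, while among the 4 edited lines the medium was the same. All groups shared the remaining medium of RPMI-1640 with serum and antibiotics. Whether an edited line is 1 clone, and whether the 3 libraries of a group are 3 cultures, is not given in the labels. The p-values therefore reflect the library-to-library spread alone, and that spread may be technical.

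Each of these enzymes uses iron and molecular oxygen to oxidise its substrate while it converts 2-oxoglutarate to succinate. Mutant IDH1 and IDH2 convert 2-oxoglutarate to 2-hydroxyglutarate, a close structural relative that can compete with 2-oxoglutarate in the active site of such enzymes. The histone demethylases and the TET enzymes are the members of this superfamily most studied in IDH-mutant leukaemia. Transcript levels show how much messenger RNA of each enzyme was present and not how active the enzyme was. In bulk RNA, fewer cells with a transcript and less transcript per cell cannot be told apart.

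Levels are in TPM, a measure of transcript abundance scaled for transcript length and for the library's total. Differences are on the log2(TPM + 1) scale with their standard error (SE), a scale that compresses the changes of weakly expressed genes. A gene passed a comparison where its limma adjusted p, after Benjamini-Hochberg adjustment over all 14881 genes tested, was under 0.05, and "rose" or "fell" is used of such genes. The median of all tested genes was itself above 0, at 0.16 in IDH1R132H, 0.23 in IDH2R140Q, 0.03 for IDH2R140W and 0.13 for IDH2R172K, each against Parental. The table holds no read numbers, so the depth of a library is unknown and values carry no counting interval. Of 13 markers of the progenitor line, 10 reached 1 TPM in some library. CSF2RA, IL3RA and GATA1 were listed at 0 throughout, as were other genes in wide use such as PGK1, so that an exact 0 in this table can be a failed estimate. Of 4 T cell markers, CD3D alone reached 1 TPM, with sums of the list from 28.9 to 36.0 TPM in IDH1R132H, 0.45 to 3.28 in IDH2R140Q, 7.42 to 10.9 in IDH2R140W and 49.5 to 57.5 in IDH2R172K, against 60.2 to 82.8 in Parental. Neither of 2 monocyte markers reached 1 TPM, the B cell, neutrophil and fibroblast lists summed to at most 3.95 TPM in a library, and the epithelial list, with KRT8 and KRT18 detected, summed to between 529.21 and 792.27 TPM. Of 3 endothelial markers VWF stayed under 1 TPM, and the list, mostly through PECAM1, summed to 139.43 to 161.78 TPM in IDH1R132H, to 100.79 to 108.32 in IDH2R140Q, to 32.1 to 76.8 in IDH2R140W and to 108.13 to 136.04 in IDH2R172K, against 46.6 to 127.45 in Parental. CDH5, the endothelial cadherin, stood at 11.8, 12.5 and 12.6 TPM in IDH1R132H, at 5.2, 4.79 and 4.6 in IDH2R140Q, at 0.88, 0.33 and 0.19 in IDH2R140W and at 24.48, 24.53 and 24.45 in IDH2R172K, against 0.92, 0.51 and 0.81 in Parental. IDH1R132H, IDH2R140Q and IDH2R172K were thus above Parental without overlap for CDH5, and the part of this marker in the results below was not tested.

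Parental replicate 2 and IDH2R140W replicate 3 stood apart from the other libraries of their groups. The share of TPM in ribosomal protein genes was 21.9% in IDH2R140W replicate 3 and 21.0% in Parental replicate 2, against 18.1% and 18.4% in the other IDH2R140W libraries and 16.7% and 17.7% in the other Parental libraries. Genes in the longest of 4 classes of transcript length deviated from the mean of the group's other libraries by −0.45 in IDH2R140W replicate 3 and −0.42 in Parental replicate 2, on the log2 scale at the median. Of the 38 dioxygenases tested, IDH2R140W replicate 3 was the lowest of its 3 libraries for 28 and Parental replicate 2 for 24. Some of the results that use these libraries are also given without them. Several of the counts below are given with all libraries only. The part that this length-related shift plays in the other results was not tested.

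Of the 42 genes, 38 were tested. KDM5C and TMLHE read 0 in all libraries on 2 rows each and were not measured. P4HA3, a collagen prolyl hydroxylase subunit, and P4HTM, a transmembrane prolyl hydroxylase, stayed at or below 0.34 TPM and under the filter on low values. At the other end EGLN2, KDM4A and ALKBH7 exceeded 100 TPM on average in at least 1 group.

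**Figure D1:**
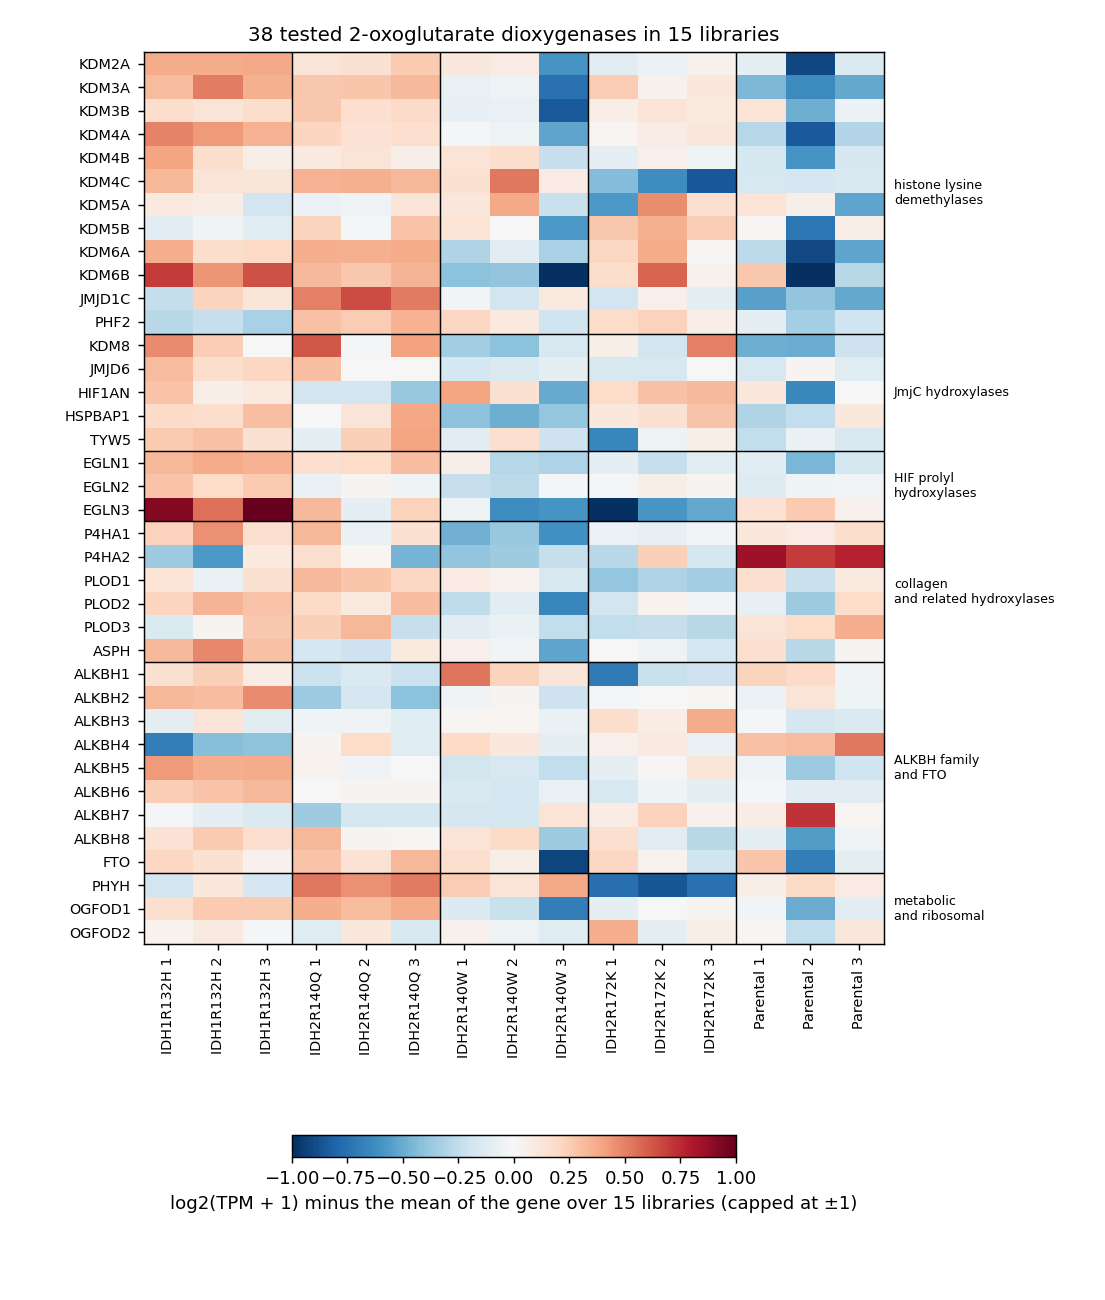
Level of each of the 38 tested dioxygenases (vertical axis, grouped by role) in each of the 15 libraries (horizontal axis), as log2(TPM + 1) minus the gene's mean over all libraries, with colour capped at ±1. Most demethylases are above their mean in the IDH1R132H and IDH2R140Q libraries, and IDH2R140W replicate 3 and Parental replicate 2 are low for many genes.

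The promoters of 4 histone demethylases that rose in IDH1R132H are shown because each of these genes passed in that line and because RefSeq's start for each lies such that the 250 bases before it fall outside the gene as GENCODE 29 annotates it. Capitals mark ACGTG or GCGTG on either strand, the core of the hypoxia response element that HIF binds. The sequences are from RefSeq, build GRCh38.p14, 5′ to 3′ on the gene's strand, which is the plus strand for all 4. They are chr11:67119013-67119262 for KDM2A, chr1:43649899-43650148 for KDM4A, chr19:4968863-4969112 for KDM4B and chr17:7833967-7834216 for KDM6B. GENCODE 29 starts KDM6B at position 7839904, well downstream of its window, and starts the other genes shown close to the end of theirs. The sequence for KDM6B thus rests on RefSeq's start alone.
KDM2A: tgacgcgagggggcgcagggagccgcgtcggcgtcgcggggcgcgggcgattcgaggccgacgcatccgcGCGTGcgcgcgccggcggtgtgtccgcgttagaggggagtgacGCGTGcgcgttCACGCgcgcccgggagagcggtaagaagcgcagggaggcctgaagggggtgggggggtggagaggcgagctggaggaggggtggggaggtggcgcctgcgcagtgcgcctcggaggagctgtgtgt
KDM4A: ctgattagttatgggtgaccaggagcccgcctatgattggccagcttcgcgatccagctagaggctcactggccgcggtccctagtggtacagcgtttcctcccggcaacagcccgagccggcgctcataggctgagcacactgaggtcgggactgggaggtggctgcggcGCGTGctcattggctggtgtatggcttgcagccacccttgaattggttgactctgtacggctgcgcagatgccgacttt
KDM4B: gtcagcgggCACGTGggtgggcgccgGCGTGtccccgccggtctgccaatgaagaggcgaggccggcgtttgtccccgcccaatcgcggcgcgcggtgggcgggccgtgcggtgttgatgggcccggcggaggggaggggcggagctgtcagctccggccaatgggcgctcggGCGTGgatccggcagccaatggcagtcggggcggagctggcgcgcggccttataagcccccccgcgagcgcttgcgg
KDM6B: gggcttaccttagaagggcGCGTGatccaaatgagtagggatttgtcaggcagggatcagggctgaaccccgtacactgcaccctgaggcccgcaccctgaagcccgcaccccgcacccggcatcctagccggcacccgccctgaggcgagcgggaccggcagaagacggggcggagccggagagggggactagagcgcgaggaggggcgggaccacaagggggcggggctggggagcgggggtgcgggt
The table of promoters held 39 of the 42 genes, and 25 of these (64.1%) had a match to either motif in that window, against 43.1% of all 27305 promoters. For ACGTG alone the shares were 20.5% and 18.7%, and for GCGTG alone 56.4% and 31.9%. Both motifs contain CpG, and the base composition of the promoters was not matched. A match is a string of letters and not a shown binding site. KDM4B holds the palindrome CACGTG, which counts on both strands. EGLN3 and JMJD1C had no match in this window.

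Histone lysine demethylases remove methyl groups from lysines of histone tails and thereby act on the marks that accompany active and silent chromatin. Of 12 tested, 7 rose and none fell in IDH1R132H against Parental, 8 rose and none fell in IDH2R140Q, 2 rose and none fell in IDH2R140W, and 5 rose and 1 fell in IDH2R172K. Of all genes tested, 43.8% passed in IDH1R132H (30.1% higher and 13.7% lower), 44.4% in IDH2R140Q (33.3% and 11.1%), 24.0% in IDH2R140W (13.3% and 10.7%) and 39.1% in IDH2R172K (25.5% and 13.5%). The median difference of the 12 lay above that of all genes by 0.36, 0.31, 0.21 and 0.26. After median-ratio scaling, which sets the all-gene shift to about 0, the counts that rose and fell were 6 and 1 in IDH1R132H, 5 and 0 in IDH2R140Q, 0 and 0 in IDH2R140W, and 3 and 1 in IDH2R172K. Without Parental replicate 2 and IDH2R140W replicate 3 they were 7 and 0, 8 and 0, 6 and 0, and 5 and 1. The comparisons share the Parental libraries, so they are not independent of each other. For counts after a scaling or with libraries left out, the share of all genes in that fit is not given, here or for the lists below.

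KDM3A, which removes mono- and dimethyl groups from lysine 9 of histone H3 and is a known HIF target, stood at 28.7, 33.0 and 29.4 TPM in IDH1R132H, at 27.8, 27.8 and 28.8 in IDH2R140Q, at 21.6, 22 and 13.2 in IDH2R140W and at 27.4, 23.6 and 24.6 in IDH2R172K, against 16.5, 14.3 and 15.7 in Parental. Every library of IDH1R132H, IDH2R140Q and IDH2R172K was above every Parental library, while IDH2R140W overlapped Parental through its replicate 3. KDM3A rose by 0.93 ± 0.15 (SE) in IDH1R132H (limma adjusted p = 0.00021), by 0.82 in IDH2R140Q (0.000603) and by 0.67 in IDH2R172K (0.00303), and these 3 calls held under every alternative. The median of its 28 tested neighbours within 5 Mb on chromosome 2 was 0.23, 0.33 and 0.10 in the same lines.

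KDM4A, which acts on trimethylated lysines 9 and 36 of histone H3 and is among the demethylases most studied with 2-hydroxyglutarate, was the most abundant of the group. It stood at 148, 142 and 134 TPM in IDH1R132H, at 122, 116 and 118 in IDH2R140Q, at 104, 102 and 72.6 in IDH2R140W and at 106, 111 and 114 in IDH2R172K, against 86.1, 58.3 and 85.5 in Parental. All IDH1R132H, IDH2R140Q and IDH2R172K libraries were above all Parental libraries. The difference from Parental was 0.90 ± 0.14 in IDH1R132H (adjusted p = 0.000198), 0.65 in IDH2R140Q (0.0026) and 0.54 in IDH2R172K (0.0089). In IDH2R172K it was 0.36 without the 2 libraries that stood apart, and still passed. After median-ratio scaling it was 0.38 in both IDH2R140Q and IDH2R172K.

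KDM6A and KDM6B both remove the repressive trimethyl mark of lysine 27 of histone H3. KDM6A stood at 17.3, 15.2 and 15.4 TPM in IDH1R132H, at 17.4, 17.3 and 17.5 in IDH2R140Q, at 10.6, 12.2 and 10.4 in IDH2R140W and at 15.5, 17.5 and 13.4 in IDH2R172K, against 10.9, 6.66 and 8.93 in Parental. IDH2R140W was the line in which KDM6A overlapped Parental. KDM6A rose by 0.81 ± 0.15 in IDH1R132H (adjusted p = 0.000488), by 0.93 in IDH2R140Q (0.000179) and by 0.76 in IDH2R172K (0.000926), each under every alternative. KDM6B was more variable, at 25.1, 20.8 and 23.9 TPM in IDH1R132H, 19.0, 18.3 and 19.3 in IDH2R140Q, 11.1, 11.2 and 5.69 in IDH2R140W and 17.1, 23.0 and 15.6 in IDH2R172K, against 18.3, 5.01 and 12.2 in Parental. Its Parental libraries spread over a range wider than that of any edited line, with replicate 2 lowest. The rise of KDM6B by 1.07 ± 0.33 in IDH1R132H (adjusted p = 0.0181) was 0.60 without Parental replicate 2 and then did not pass. KDM6B also rose in IDH2R140Q against IDH2R140W, by 1.00 (0.0334), a value of 0.71 without the 2 libraries that stood apart. Without IDH2R140W replicate 3 alone that call was lost.

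JMJD1C, a JmjC protein of the KDM3 family, stood at 18.8, 26.3 and 24.4 TPM in IDH1R132H, at 32.1, 35.7 and 32.6 in IDH2R140Q, at 22, 19.6 and 24.0 in IDH2R140W and at 19.5, 23.2 and 20.9 in IDH2R172K, against 15.1, 16.8 and 15.4 in Parental. The IDH2R140Q libraries were above all the others. JMJD1C was the 1 demethylase that passed in all 4 comparisons with Parental, by 0.52, 1.04, 0.45 and 0.41 in the order of the lines above (adjusted p = 0.00349, 1.31e-05, 0.0161 and 0.0171). Only the rise in IDH2R140Q was kept after median-ratio scaling and after quantile normalisation. That rise was 2-fold, and the median of the 16 tested neighbours of JMJD1C on chromosome 10 was −0.21 in the same comparison. JMJD1C was also higher in IDH2R140Q than in IDH2R172K, by 0.64 ± 0.12 (adjusted p = 0.00112, under every alternative).

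KDM4C, a paralogue of KDM4A with the same marks as substrates, went in opposite directions among the IDH2 lines. It stood at 8.80, 7.52 and 7.49 TPM in IDH1R132H, at 8.92, 8.97 and 8.79 in IDH2R140Q, at 7.65, 10.2 and 7.26 in IDH2R140W and at 4.77, 4.07 and 3.33 in IDH2R172K, against 5.96, 5.94 and 6.0 in Parental. All IDH2R172K libraries were below all Parental libraries, and all libraries of the other lines were above them. KDM4C fell by 0.47 in IDH2R172K (adjusted p = 0.0153) and rose by 0.51 in IDH2R140Q (0.00936) and by 0.41 in IDH2R140W (0.0436). The fall was lost without IDH2R172K replicate 3, and both rises were lost after median-ratio scaling. The differences among edited lines held under every alternative, at 0.98 ± 0.14 for IDH2R140Q against IDH2R172K (adjusted p = 9.49e-05) and 0.89 ± 0.14 for IDH2R140W against IDH2R172K (0.000246).

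Other genes near KDM4C on the short arm of chromosome 9 were also lower in IDH2R172K. Of 14 tested protein-coding neighbours within 5 Mb, 10 fell in IDH2R172K against Parental and none rose, with a median of −0.72, and 12 fell without Parental replicate 2 and IDH2R140W replicate 3. They included AK3 at −1.17, JAK2 at −0.98 and CD274 at −0.72, named after their values were seen. In IDH2R140Q 6 of the 14 rose and none fell, in IDH1R132H 2 rose and none fell, and in IDH2R140W none rose and 1 fell. For IDH2R140Q against IDH2R172K, 11 of the 14 rose and none fell, with a median of 0.97. DNA copy number was not measured, and its part in these values was not tested.

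**Figure D2:**
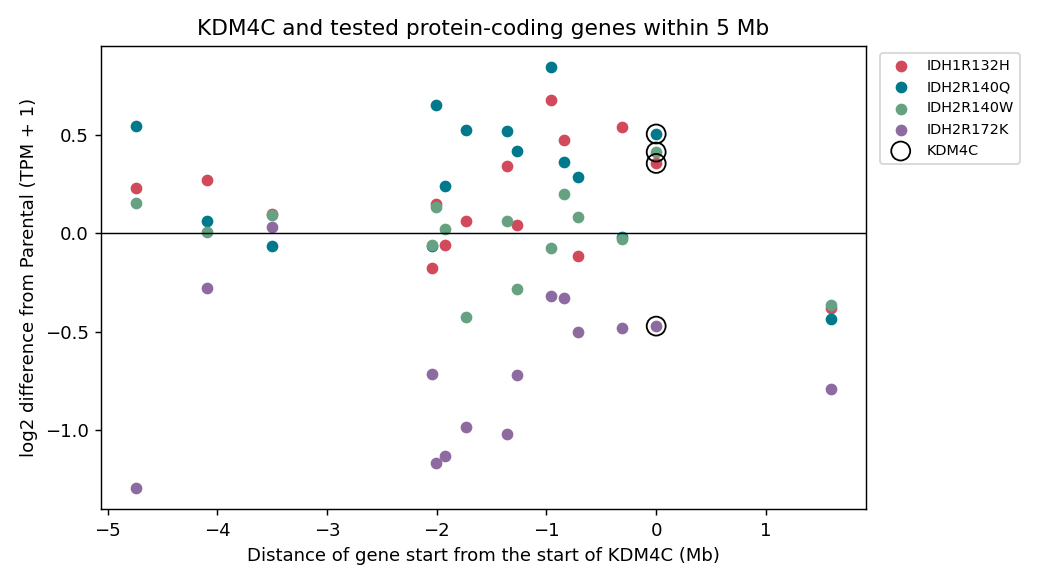
Difference from Parental on the log2(TPM + 1) scale (vertical axis) of KDM4C, ringed, and its 14 tested protein-coding neighbours by distance of gene start in Mb (horizontal axis), coloured by edited line. In IDH2R172K 13 of the 14 neighbours lie below 0.

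Of the other demethylases, KDM2A, which acts on dimethylated lysine 36 of histone H3, stood at 70.6, 70.9 and 71.0 TPM in IDH1R132H, against 51.3, 28.5 and 49.2 in Parental. The groups did not overlap, and Parental replicate 2 was far below the other Parental libraries. The rise of KDM2A of 0.75 ± 0.20 (adjusted p = 0.00712) became 0.49 without that library and still passed. In IDH2R140Q the rise was 0.56 (0.0332), and it was 0.30 and did not pass without Parental replicate 2. KDM3B, a paralogue of KDM3A, passed 1 comparison between 2 groups, at 0.54 in IDH2R140Q against IDH2R140W (0.0334), a call lost without IDH2R140W replicate 3. KDM4B rose by 0.52 in IDH1R132H under every alternative (adjusted p = 0.00812) and by 0.40 in IDH2R140Q (0.031), where the call was lost after median-ratio scaling and without Parental replicate 2. PHF2, whose targets include dimethylated lysine 9 of histone H3, rose by 0.51 in IDH2R140Q (0.00353), a call lost after quantile normalisation, and by 0.37 in IDH2R172K (0.0238), lost after either scaling. In IDH1R132H the level of PHF2 was 7.43, 7.68 and 7.15 TPM, against 8.56, 7.05 and 7.87 in Parental, with overlap and no call.

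KDM5A, an eraser of trimethylated lysine 4 of histone H3, passed no comparison. It stood at 25.3, 24.8 and 20.5 TPM in IDH1R132H, 22.6, 23.0 and 25.8 in IDH2R140Q, 25.6, 30.9 and 20.0 in IDH2R140W and 15.5, 32.9 and 26.5 in IDH2R172K, against 26.0, 24.6 and 16.1 in Parental. The ranges within IDH2R172K and within Parental were wider than the distance between any pair of group means. Its paralogue KDM5B passed no comparison either, with library values between 6.09 and 14.0 TPM.

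**Figure D3:**
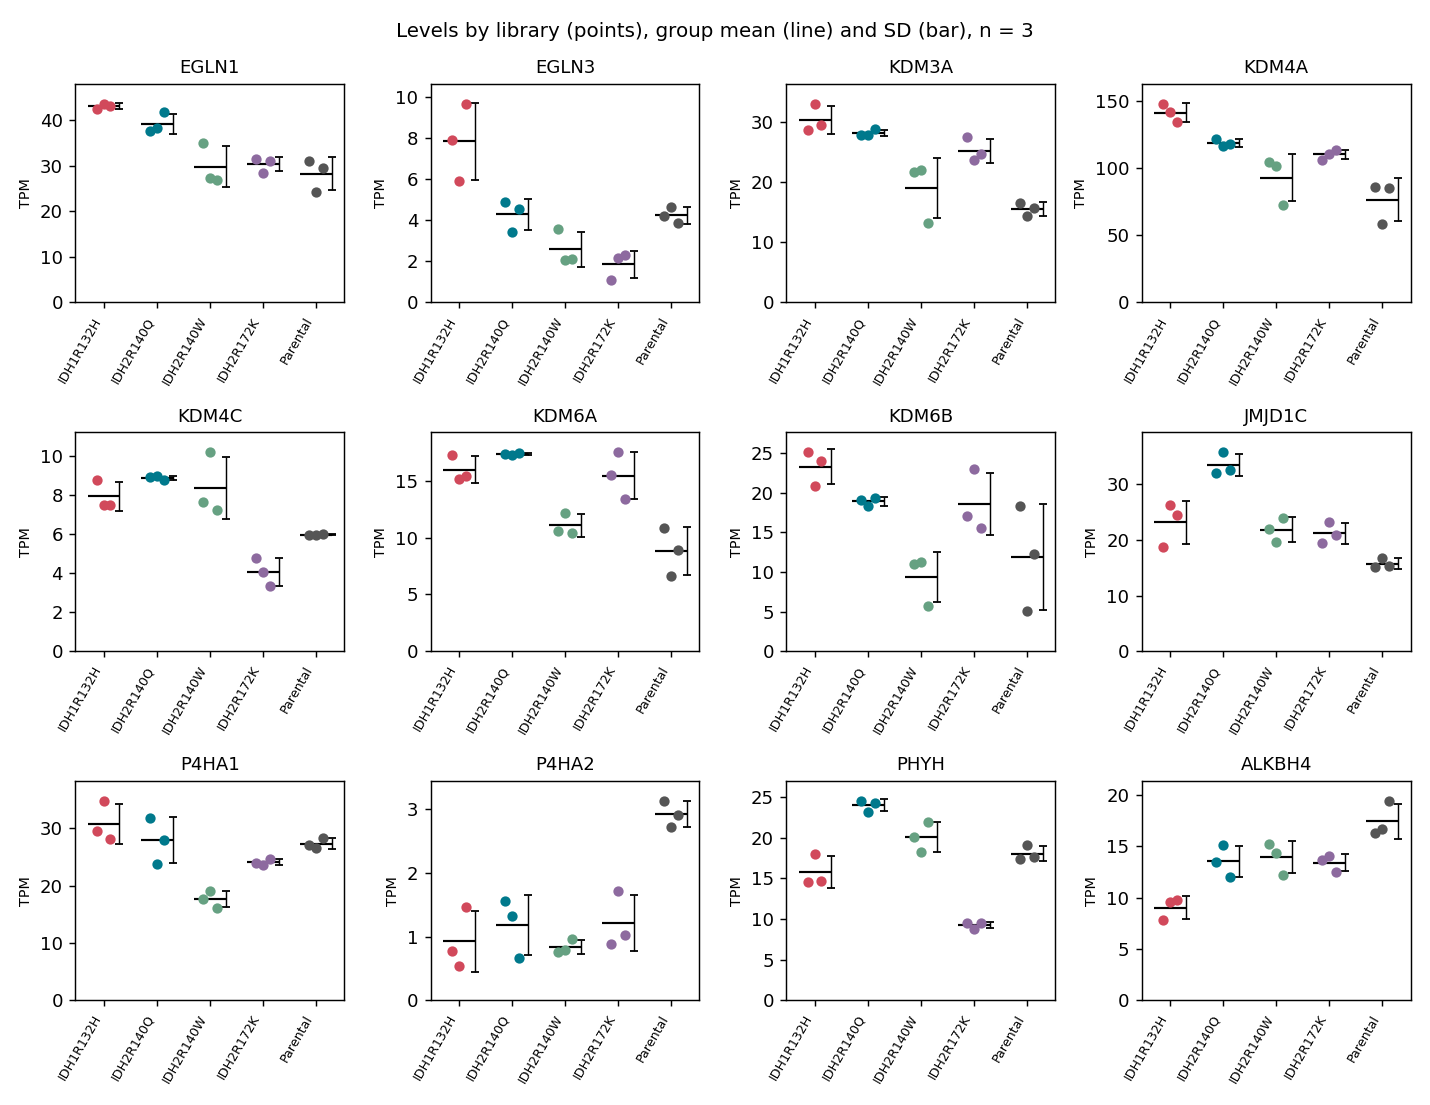
TPM (vertical axis) of 12 dioxygenases in each library (points), with the group mean (line) and SD (bar, n = 3) for the 5 groups on the horizontal axis. EGLN3 is highest in IDH1R132H, KDM4C and PHYH are lowest in IDH2R172K, and P4HA2 is higher in Parental than in every edited line.

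The prolyl hydroxylases EGLN1, EGLN2 and EGLN3 mark the alpha subunits of HIF for destruction when oxygen is present, and EGLN1 and EGLN3 are themselves HIF targets. All 3 rose in IDH1R132H both against Parental and against the mean of the 3 IDH2 lines. In the second comparison, in which medium was shared, 32.8% of all genes passed, 18.8% higher and 14.0% lower. Their rises there were kept under every alternative, whereas against Parental median-ratio scaling left EGLN1 as the 1 of the 3 that passed.

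EGLN1, the main oxygen sensor of the family, stood at 42.5, 43.7 and 43.1 TPM in IDH1R132H, 37.6, 38.3 and 41.7 in IDH2R140Q, 35.1, 27.4 and 27.0 in IDH2R140W and 31.5, 28.5 and 31.1 in IDH2R172K, against 31.1, 24.2 and 29.6 in Parental. IDH1R132H libraries were above all others, and IDH2R140Q libraries came next without overlap with the remaining groups. EGLN1 rose by 0.60 ± 0.11 in IDH1R132H (adjusted p = 0.000605) and by 0.46 in IDH2R140Q (0.00399) against Parental, and by 0.38 ± 0.09 in IDH1R132H against the IDH2 lines (0.00468). After median-ratio scaling the value in IDH2R140Q was 0.20 and did not pass. In IDH1R132H against Parental it was 0.39 after quantile normalisation and still passed.

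EGLN2 was the most abundant, at 148, 138 and 146 TPM in IDH1R132H, against a range of 101 to 126 TPM in the libraries of the IDH2 lines and 110 to 119 in Parental. IDH1R132H did not overlap any other group. The difference was 0.31 ± 0.06 against the IDH2 lines (adjusted p = 0.000799) and 0.31 ± 0.07 against Parental (0.00227). The difference from Parental was 0.11 after median-ratio scaling and did not pass. The 205 tested neighbours of EGLN2 on chromosome 19 had a median of 0.33 against Parental and 0.12 against the IDH2 lines.

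EGLN3 had the widest range of group means among the dioxygenases with at least 5 TPM in their highest group. It stood at 7.89, 5.90 and 9.66 TPM in IDH1R132H, at 4.89, 3.43 and 4.52 in IDH2R140Q, at 3.55, 2.06 and 2.13 in IDH2R140W and at 1.08, 2.15 and 2.30 in IDH2R172K, against 4.20, 4.65 and 3.85 in Parental. IDH1R132H was above and IDH2R172K below every Parental library, and both IDH2R140W and IDH2R172K lay below the lowest Parental value. Against the mean of the IDH2 lines EGLN3 was 1.22 ± 0.18 higher in IDH1R132H (adjusted p = 0.000136), the 1 of the 38 tested dioxygenases with a 2-fold difference in that comparison, in which 4.58% of all genes passed with a 2-fold difference. Against Parental it rose by 0.73 ± 0.22 in IDH1R132H (0.0158) and fell by 0.91 ± 0.22 in IDH2R172K (0.00521). The rise was lost after median-ratio scaling and without IDH1R132H replicate 3, and the fall held under every alternative.

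HIF1AN, the asparaginyl hydroxylase that blocks the transactivation domain of HIF, passed no comparison. It stood at 31.8, 27.1 and 27.8 TPM in IDH1R132H, 22.7, 22.6 and 19.7 in IDH2R140Q, 34.4, 28.8 and 18.0 in IDH2R140W and 29.6, 32.0 and 32.7 in IDH2R172K, against 28.0, 16.2 and 25.8 in Parental. Parental replicate 2 and IDH2R140W replicate 3 were the lowest of all libraries for this gene.

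Outside the dioxygenases, 9 genes of the HIF subunits and the VHL complex were tested. Among them 3 rose and 1 fell in IDH1R132H, 2 rose and 2 fell in IDH2R140Q, 1 rose and 1 fell in IDH2R140W, and 2 rose and 1 fell in IDH2R172K. In that order 44.4%, 44.4%, 22.2% and 33.3% passed, against 43.8%, 44.4%, 24.0% and 39.1% of all genes. With median-ratio scaling the counts that rose and fell were 3 and 4, 1 and 4, 1 and 1, and 2 and 2, and without Parental replicate 2 and IDH2R140W replicate 3 they were 2 and 3, 1 and 2, 2 and 1, and 3 and 2. HIF1A, the oxygen-regulated alpha subunit, stood at 58.9, 55.8 and 50.5 TPM in IDH1R132H, at 53.1, 50.4 and 57.1 in IDH2R140Q, at 53.5, 58.0 and 38.6 in IDH2R140W and at 50.7, 51.6 and 48.0 in IDH2R172K, against 35.5, 19.3 and 31.7 in Parental. Every edited library was above every Parental library. The rise of HIF1A was 0.95 ± 0.18 in IDH1R132H, 0.91 for IDH2R140Q, 0.80 for IDH2R140W and 0.82 for IDH2R172K (adjusted p = 0.000842, 0.00126, 0.00581 and 0.00295). Without Parental replicate 2 and IDH2R140W replicate 3 it was 0.70, 0.66, 0.72 and 0.57, and all 4 passed. Of 20 tested HIF targets, 8 rose and 4 fell in IDH1R132H, 3 rose and 4 fell in IDH2R140Q, 5 rose and 4 fell in IDH2R140W, and 4 rose and 5 fell in IDH2R172K. The counts that rose and fell after median-ratio scaling were 7 and 5, 3 and 10, 5 and 4, and 3 and 7. The median of these 20 lay below that of all genes in IDH2R140Q against Parental, at −0.33 relative to it. In the other comparisons with Parental it lay close to that of all genes. The relative values there were 0.05 for IDH1R132H, 0.02 for IDH2R140W and −0.02 for IDH2R172K. DDIT4, an inhibitor of mTOR signalling that hypoxia and other stresses induce, stood at 158, 159 and 163 TPM in IDH1R132H, at 37.7, 38.2 and 35.7 in IDH2R140Q, at 56.7, 54.2 and 52.0 in IDH2R140W and at 15.5, 15.8 and 12.4 in IDH2R172K, against 108, 101 and 97.4 in Parental. IDH1R132H was above Parental, and all IDH2 lines were below it. The 2.33 ± 0.07 excess of DDIT4 in IDH1R132H over the IDH2 lines was the largest difference of the HIF target list in that comparison (adjusted p = 3.84e-11). NDRG1, a stress-induced gene, rose by 1.82 and PFKFB4, which controls glycolysis, fell by 1.40 in IDH1R132H against Parental (2.53e-06 and 1.69e-06).

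The JmjC hydroxylases modify proteins or RNA rather than demethylate histones. Apart from HIF1AN, 4 were tested. KDM8 rose by 0.64 in IDH1R132H (adjusted p = 0.0187) and by 0.73 in IDH2R140Q (0.00914) against Parental, with values of 10.4, 8.71 and 7.20 TPM in IDH1R132H and 11.6, 7.06 and 9.81 in IDH2R140Q, against 4.84, 4.80 and 6.08 in Parental. Both calls were lost after median-ratio scaling. JMJD6, a lysyl hydroxylase of splicing factors, rose in IDH1R132H against the IDH2 lines by 0.28 ± 0.08 (0.0136) and against Parental by 0.32 (0.0164), and both calls were lost after median-ratio scaling. HSPBAP1, a JmjC protein that binds a heat shock protein, stood at 3.69, 3.44 and 3.76 TPM in IDH2R140W, below every library of every other group. It was lower in IDH2R140W than in IDH2R172K by 0.61 ± 0.14 under every alternative (log2 difference −0.61, adjusted p = 0.00426). TYW5, which hydroxylates a modified base of phenylalanine transfer RNA, passed no comparison.

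Collagen prolyl 4-hydroxylases stabilise the collagen triple helix, and the PLOD enzymes hydroxylate collagen lysines for cross-linking. Of 6 tested genes with ASPH, 1 rose and 1 fell in IDH1R132H, and 1 rose and 1 fell in IDH2R140Q. In IDH2R140W none rose and 2 fell, and in IDH2R172K none rose and 3 fell. Of all genes tested, 30.1% rose and 13.7% fell in IDH1R132H, and 33.3% and 11.1% in IDH2R140Q. The all-gene shares were 13.3% and 10.7% in IDH2R140W, and 25.5% and 13.5% in IDH2R172K. They are the same for every list counted against Parental with all libraries and no scaling. After median-ratio scaling none of the 6 rose in any line, and 2, 3, 3 and 4 fell. The rise in IDH1R132H was that of ASPH, at 0.39 (adjusted p = 0.0445), which did not pass under 16 of 27 alternatives. P4HA2, a catalytic alpha subunit, stood at 0.78, 0.54 and 1.46 TPM in IDH1R132H, 1.56, 1.33 and 0.66 in IDH2R140Q, 0.75, 0.79 and 0.96 in IDH2R140W and 0.89, 1.71 and 1.03 in IDH2R172K, against 3.13, 2.73 and 2.92 in Parental. Each edited library was below each Parental library. P4HA2 fell by 1.05, 0.87, 1.10 and 0.85 in the 4 lines in that order (adjusted p = 0.00116, 0.00469, 0.00172 and 0.00616), under every alternative in which it was tested. With a pseudocount of 0.1, which compresses low values less, the falls in the first 3 lines were −1.66, −1.31 and −1.70. P4HA2 was the 1 dioxygenase that fell in all 4 lines, and it is expressed at a low level, near the filter.

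P4HA1, the other alpha subunit and a HIF target, stood at 29.6, 34.8 and 28.2 TPM in IDH1R132H, 31.9, 23.9 and 28.0 in IDH2R140Q, 17.7, 19.1 and 16.2 in IDH2R140W and 24.0, 23.6 and 24.6 in IDH2R172K, against 27.0, 26.6 and 28.4 in Parental. IDH2R140W was below all other groups without overlap. P4HA1 fell by 0.61 ± 0.11 in IDH2R140W against Parental (adjusted p = 0.001), and was higher in IDH2R140Q than in IDH2R140W by 0.63 (0.000632) and lower in IDH2R140W than in IDH2R172K, at −0.43 (0.00816). In IDH1R132H it was higher than in the IDH2 lines by 0.42 ± 0.09 (0.00244). These 4 calls held under every alternative.

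PLOD1 stood at 90.7, 78.9 and 91.9 TPM in IDH1R132H, 104, 100.2 and 95.1 in IDH2R140Q, 87.4, 84.7 and 73.7 in IDH2R140W and 62.9, 66.2 and 64.7 in IDH2R172K, against 92.3, 70.4 and 88.3 in Parental. IDH2R172K was the lowest group, without overlap. It fell by 0.36 in IDH2R172K (adjusted p = 0.0116), a call lost with only the compared libraries, and was higher in IDH2R140Q than in IDH2R172K by 0.62 ± 0.10 under every alternative (0.000302). Its rise of 0.26 in IDH2R140Q against Parental (0.0495) was at the threshold and did not pass under 20 of 27 alternatives. After median-ratio scaling it became −0.006. PLOD3 fell by 0.48 in IDH2R172K (0.0132), a call lost without Parental replicate 3. PLOD2, another HIF target, was 0.35 higher in IDH1R132H than in the IDH2 lines (0.0414), a call lost without any of the IDH1R132H libraries. ASPH, which hydroxylates epidermal growth factor-like domains, was 0.48 ± 0.12 higher in IDH1R132H than in the IDH2 lines under every alternative (0.00724), with 66.3, 74.0 and 64.7 TPM in IDH1R132H and 36.2 to 56.4 in the 9 libraries of the IDH2 lines. The median of the 14 tested neighbours of ASPH within 5 Mb on chromosome 8 was 0.40 in that comparison, close to the value of ASPH. The part of the region was not tested.

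Among 10 tested collagen partners and substrates, 5 rose and 1 fell in IDH1R132H, 5 rose and none fell in IDH2R140Q, 2 rose and 2 fell in IDH2R140W, and 3 rose and none fell in IDH2R172K. After median-ratio scaling the counts were 3 and 3, 2 and 2, 2 and 4, and 2 and 2. COL6A2, a chain of collagen VI, stood at 29.4, 31.3 and 28.4 TPM in IDH1R132H, at 32.0, 34.0 and 28.7 in IDH2R140Q, at 16.8, 15.2 and 14.4 in IDH2R140W and at 9.68, 10.4 and 13.5 in IDH2R172K, against 5.26, 5.66 and 5.15 in Parental. No edited library overlapped Parental, and COL6A2 rose by 2.27 in IDH1R132H, 2.36 for IDH2R140Q, 1.37 for IDH2R140W and 0.92 for IDH2R172K (adjusted p = 4.26e-09, 3.48e-09, 1.53e-06 and 2.9e-05). COL1A1, COL1A2, COL3A1, COL4A1, COL4A2 and COL5A1 were under the filter.

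FTO and several of the ALKBH enzymes remove methyl groups from DNA, RNA or protein. Of 9 tested, 3 rose and 1 fell in IDH1R132H against Parental, none rose and 3 fell in IDH2R140Q, none passed in IDH2R140W, and 1 rose and 2 fell in IDH2R172K. In that order 44.4%, 33.3%, 0% and 33.3% passed, against 43.8%, 44.4%, 24.0% and 39.1% of all genes. After median-ratio scaling 1 rose and 2 fell in IDH1R132H, none rose and 4 fell in IDH2R140Q, none rose and 1 fell in IDH2R140W, and none rose and 2 fell in IDH2R172K. Without that scaling, limma gave an unadjusted p under 0.05 for 2 of the 9 genes in IDH2R140W. ALKBH5, which demethylates N6-methyladenosine (m6A) in messenger RNA, stood at 77.4, 73.7 and 74.4 TPM in IDH1R132H, 58.5, 55.8 and 57.4 in IDH2R140Q, 50.4, 51.0 and 48.1 in IDH2R140W and 53.5, 57.5 and 62.1 in IDH2R172K, against 55.3, 44.1 and 49.7 in Parental. IDH1R132H was above all other groups without overlap. ALKBH5 rose by 0.59 ± 0.08 against Parental (adjusted p = 5.27e-05) and by 0.45 ± 0.07 against the IDH2 lines (0.000144), both under every alternative.

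FTO, the other m6A demethylase, passed no comparison. It stood at 22.2, 21.4 and 19.7 TPM in IDH1R132H, 23.5, 21.2 and 24.3 in IDH2R140Q, 21.6, 19.9 and 9.65 in IDH2R140W and 22.2, 19.7 and 16.6 in IDH2R172K, against 23.4, 11.5 and 17.8 in Parental. Its 2 lowest values were in IDH2R140W replicate 3 and Parental replicate 2. Of 12 tested genes of the m6A methyltransferase and readers, 5 rose and 1 fell in IDH1R132H, 6 rose and 1 fell in IDH2R140Q, 1 rose and 1 fell in IDH2R140W, and 3 rose and 3 fell in IDH2R172K. After median-ratio scaling the counts that rose and fell were 0 and 2, 2 and 1, 1 and 2, and 2 and 3 in the same order, so the excess of rises in IDH1R132H was not kept. METTL3, the catalytic subunit of the m6A writer, was the gene that fell in IDH1R132H, by 1.08 ± 0.06 (adjusted p = 8.44e-09, kept under that scaling), with 47.4, 49.96 and 46.9 TPM in IDH1R132H against 104, 99.2 and 106 in Parental. It was also lower in IDH1R132H than in the IDH2 lines, at −0.83 ± 0.05 (2.33e-08).

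ALKBH4, which demethylates actin, moved the other way from ALKBH5. It stood at 7.77, 9.57 and 9.73 TPM in IDH1R132H, 13.4, 15.1 and 12 in IDH2R140Q, 15.2, 14.3 and 12.2 in IDH2R140W and 13.7, 14.0 and 12.5 in IDH2R172K, against 16.3, 16.7 and 19.4 in Parental. Every edited library was below every Parental library, and IDH1R132H was below all the others. ALKBH4 fell by 0.88 ± 0.12 in IDH1R132H (adjusted p = 5.62e-05) and was lower there than in the IDH2 lines, at −0.55 ± 0.10 (0.000789), both under every alternative. It fell by 0.35 in both IDH2R140Q (0.0349) and IDH2R172K (0.0354), and both calls were lost without Parental replicate 3.

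ALKBH2, which repairs alkylated bases in double-stranded DNA, had 54.3, 53.2 and 59.97 TPM in IDH1R132H and 33.1, 37.9 and 32.1 in IDH2R140Q, against 41.2, 47.0 and 41.7 in Parental. IDH1R132H lay above Parental and IDH2R140Q below it. ALKBH2 was 0.50 ± 0.07 higher in IDH1R132H than in the IDH2 lines (adjusted p = 0.000113) and fell by 0.33 in IDH2R140Q against Parental (0.00923), both under every alternative, while its rise of 0.36 in IDH1R132H against Parental (0.00466) was lost after median-ratio scaling. ALKBH6, which is little characterised, was 0.36 ± 0.05 higher in IDH1R132H than in the IDH2 lines (7.21e-05), under every alternative. The 160 tested neighbours of ALKBH6 on chromosome 19 had a median of 0.25 in that comparison. ALKBH1, which acts on DNA and transfer RNA, was 0.67 ± 0.14 higher in IDH2R140W than in IDH2R172K (0.00256), under every alternative. ALKBH7, a mitochondrial protein, fell by 0.51 in IDH2R140Q against Parental (0.0147). That value was −0.28 without Parental replicate 2, where ALKBH7 stood at 145 TPM against 92.1 and 88.6 in the other Parental libraries, and the call was lost without IDH2R140Q replicate 1. ALKBH3, which repairs alkylated single-stranded DNA and RNA, rose by 0.32 in IDH2R172K (0.0134), a call lost after median-ratio scaling, and ALKBH8 passed no comparison. Of 8 tested partners of alkylation repair, 2 rose and 1 fell in IDH1R132H, and 2, 2 and 4 rose and none fell in the IDH2 lines in the order above. After median-ratio scaling none rose and 2 fell in IDH1R132H, none rose and 3 fell in IDH2R140Q, 2 rose and none fell in IDH2R140W, and 2 rose and 2 fell in IDH2R172K.

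PHYH, the peroxisomal enzyme that starts the breakdown of phytanic acid, stood at 14.6, 18.0 and 14.7 TPM in IDH1R132H, 24.5, 23.2 and 24.3 in IDH2R140Q, 20.1, 18.3 and 22 in IDH2R140W and 9.47, 8.77 and 9.53 in IDH2R172K, against 17.4, 19.1 and 17.7 in Parental. IDH2R140Q was the highest and IDH2R172K the lowest group, both without overlap. PHYH fell by 0.89 ± 0.10 in IDH2R172K against Parental (adjusted p = 1.05e-05) and rose by 0.39 in IDH2R140Q (0.00643), of which the fall held under every alternative and the rise was 0.14 and did not pass after median-ratio scaling. It was 1.29 ± 0.10 higher in IDH2R140Q (4.09e-07) and 1.04 ± 0.10 higher in IDH2R140W (3.3e-06) than in IDH2R172K. The median of its 31 tested neighbours on chromosome 10 was 0.09 in IDH2R172K against Parental.

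OGFOD1, a prolyl hydroxylase of a small ribosomal subunit protein, rose in IDH2R140Q by 0.56 ± 0.14 (adjusted p = 0.00422) under every alternative and in IDH1R132H by 0.44 (0.0173), a call lost without Parental replicate 2 and without IDH1R132H replicate 3. Its levels were 63.5, 67.6 and 67.8 TPM in IDH1R132H and 72.8, 70.5 and 73.3 in IDH2R140Q, against 55.4, 39.7 and 52.2 in Parental. OGFOD2 passed no comparison.

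Over the 38 genes together, 18 rose and 2 fell in IDH1R132H against Parental (52.6%, with 43.8% of all genes passing), 13 rose and 4 fell in IDH2R140Q (44.7%, with 44.4%), 2 rose and 2 fell in IDH2R140W (10.5%, with 24.0%), and 6 rose and 8 fell in IDH2R172K (36.8%, with 39.1%). By direction, 30.1% of all genes were higher and 13.7% lower in IDH1R132H, and 33.3% and 11.1% in IDH2R140Q. The same shares were 13.3% and 10.7% in IDH2R140W, and 25.5% and 13.5% in IDH2R172K. The 38 genes thus leaned more to rises than all genes did in IDH1R132H, and more to falls in IDH2R172K. With both directions together, the shares were near those of all genes except in IDH2R140W. There the count was 9 without the 2 libraries that stood apart, 6 higher and 3 lower. The share of all genes in that fit is not given here, so the 9 cannot be set against the 24.0%. After median-ratio scaling the counts that rose and fell were 9 and 6 in IDH1R132H, 6 and 7 in IDH2R140Q, 0 and 4 in IDH2R140W, and 3 and 9 in IDH2R172K, so the excess of rises in IDH2R140Q was not kept under that scaling. After quantile normalisation they were 10 and 5, 5 and 6, 1 and 4, and 3 and 9. Changes that passed and were at least 2-fold against Parental were the rise of KDM6B and the fall of P4HA2 in IDH1R132H, where 10.8% of all genes met both conditions, the rise of JMJD1C in IDH2R140Q (10.0% of all genes) and the fall of P4HA2 in IDH2R140W (4.78%), with none in IDH2R172K (9.31%). IDH1R132H had the highest group mean for 18 of the 38 genes, and Parental had the lowest for 13 and IDH2R140W for 12. This ranking was not made for all genes, whose median against Parental was above 0 in every edited line. It therefore cannot be called particular to the dioxygenases.

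**Figure D4:**
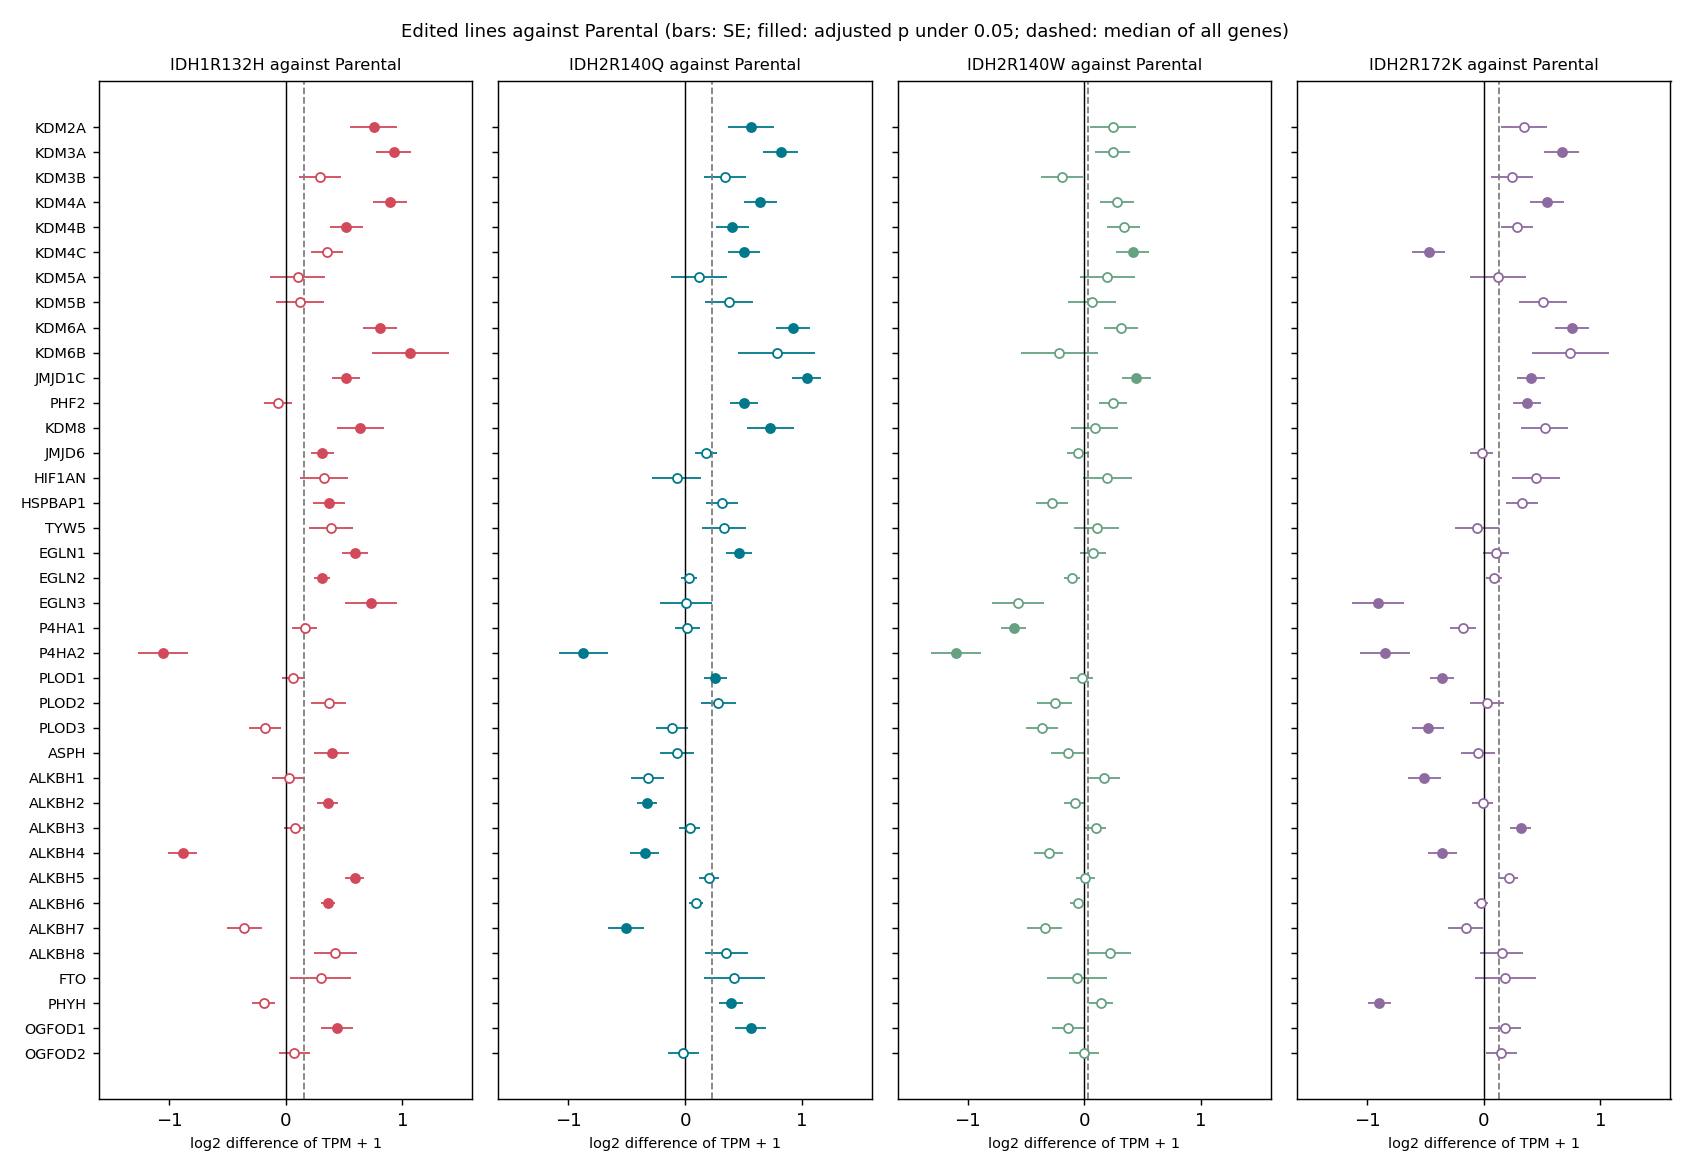
Difference of each tested dioxygenase from Parental on the log2(TPM + 1) scale (horizontal axis, bars SE) in the 4 edited lines, filled where the adjusted p was under 0.05, with the median of all genes dashed. KDM3A, KDM4A and KDM6A are filled and to the right in IDH1R132H, IDH2R140Q and IDH2R172K, and P4HA2 is to the left in all 4 lines.

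Among the edited lines, which shared their medium, 23 of the 38 genes passed a moderated F test of any difference (60.5%, with 57.3% of all genes). IDH1R132H differed from the mean of the IDH2 lines for 14 of the 38 (36.8%), of which 12 were higher and 2 lower. Of all genes 32.8% passed there, 18.8% higher and 14.0% lower. Among the dioxygenases, 10 of the 14 calls held under every alternative. The 2 lower genes were ALKBH4 and PHF2, and PHF2 was at −0.44 ± 0.10 (adjusted p = 0.00305). Among histone demethylases KDM4A was 0.41 higher in IDH1R132H (0.0161), a call lost without IDH1R132H replicate 1 or 2, and KDM3A 0.35 higher (0.0428), lost without any 1 of the IDH1R132H libraries. Under median-ratio scaling the split was 13 higher and 2 lower. This comparison does not use the Parental libraries, though the tests share their estimate of the spread.

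**Figure D5:**
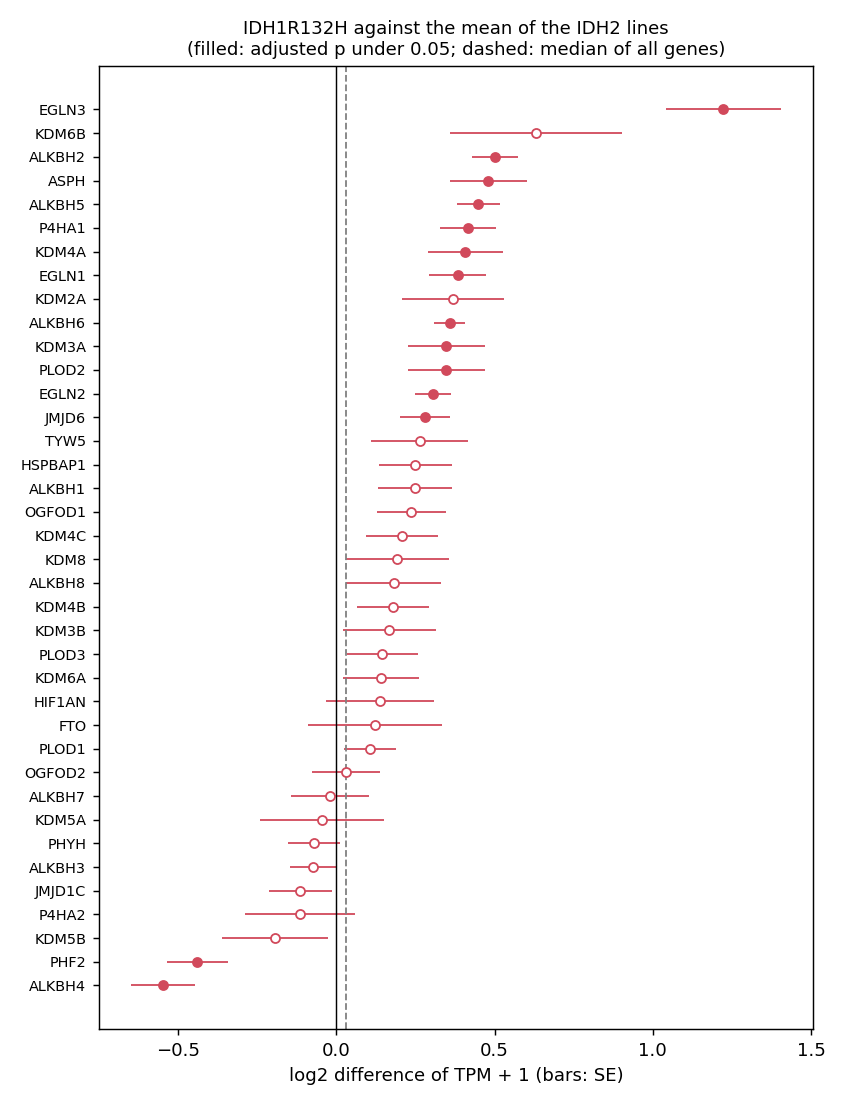
Difference of IDH1R132H from the mean of the 3 IDH2 lines for the 38 tested dioxygenases, sorted, on the log2(TPM + 1) scale (horizontal axis, bars SE), filled where the adjusted p was under 0.05. EGLN3 stands at 1.22, and ALKBH4 and PHF2 are the filled genes below 0.

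Between IDH2R140Q and IDH2R140W, which alter the same residue, 12 genes were higher and 1 lower in IDH2R140Q (34.2%, with 32.9% of all genes, or 25.0% higher and 7.91% lower), and after median-ratio scaling 6 and 4. The calls that held under every alternative were KDM6A at 0.61 (adjusted p = 0.00578), OGFOD1 at 0.70 (0.00134) and P4HA1. For IDH2R140Q against IDH2R172K, 7 were higher and 2 lower (23.7%, with 31.0% of all genes, 19.7% higher and 11.4% lower), and for IDH2R140W against IDH2R172K 4 were higher and 5 lower (23.7%, with 31.2% of all genes, 12.0% higher and 19.2% lower). PHYH and KDM4C were higher in both IDH2R140Q and IDH2R140W than in IDH2R172K.

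Other 2-oxoglutarate dioxygenases outside the 42 numbered 10 tested. The largest difference among them was that of P3H2, a collagen prolyl 3-hydroxylase listed under its older symbol LEPREL1, which stood at 22.7, 18.9 and 26.4 TPM in IDH1R132H, between 1.03 and 3.36 in the libraries of the IDH2 lines and at 1.25, 1.09 and 4.61 in Parental. IDH1R132H was far above every other library. It rose by 2.98 ± 0.30 in IDH1R132H against Parental (adjusted p = 2.45e-06) and was 3.09 ± 0.24 higher there than in the IDH2 lines (3.42e-07). KDM7A, a demethylase of histone H3 lysines listed as JHDM1D, stood at 13.9, 16.1 and 19.3 TPM in IDH1R132H against 8.29, 4.01 and 10.7 in Parental and rose by 1.08 (0.0135), or by 0.73 without Parental replicate 2 and IDH2R140W replicate 3. In all, 2 of the 10 rose and 3 fell in IDH1R132H, 3 rose and none fell in IDH2R140Q, 1 rose and none fell in IDH2R140W, and 2 rose and 1 fell in IDH2R172K. Median-ratio scaling gave counts that rose and fell of 2 and 4, 0 and 2, 1 and 1, and 1 and 2.

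Histone lysine methyltransferases write the marks that KDM enzymes erase. Of 15 tested histone lysine methyltransferases, 7 rose in IDH1R132H, 7 in IDH2R140Q, none in IDH2R140W and 5 in IDH2R172K, and none fell in any line. Those are 46.7%, 46.7%, 0% and 33.3% of the list, with 43.8%, 44.4%, 24.0% and 39.1% of all genes passing. In IDH2R140W limma also gave none an unadjusted p under 0.05. Their medians lay above that of all genes by 0.36, 0.23, 0.05 and 0.29. After median-ratio scaling 5, 2, 0 and 4 rose and none fell, and without Parental replicate 2 and IDH2R140W replicate 3 the rises were 9, 9, 0 and 5, with 1 fall in IDH1R132H. KMT2D, a writer of lysine 4 methylation, stood at 49.2, 46.9 and 55.5 TPM in IDH1R132H, against 29.2, 14.7 and 32.5 in Parental. The rise of KMT2D of 1.03 ± 0.25 (adjusted p = 0.00436) was 0.69 without those 2 libraries and still passed. Of 10 tested genes of iron and ascorbate supply, on which the dioxygenases depend, 2 rose in IDH1R132H, 4 rose and 2 fell in IDH2R140Q, 4 rose in IDH2R140W, and 1 rose and 4 fell in IDH2R172K. Under median-ratio scaling the counts that rose and fell were 2 and 4, 3 and 3, 3 and 1, and 1 and 4. SLC40A1, the iron exporter ferroportin, rose in all 4 lines, most in IDH2R140Q, with 553, 526 and 567 TPM there against 125, 82.5 and 120 in Parental (2.34 ± 0.14, 1.52e-08).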

How the data were processed

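Poly(A) RNA of 15 TF-1 libraries, 5 groups of 3 by the genotype in the labels, was sequenced with a directional kit, per the labels' protocols. The authors deposited TPM values in 1 table. STAR 2.7.3, HTSeq, RSEM, DESeq2 and the build hg38 appear in the submitters' processing notes, with no stated role. The sources used here give neither annotation nor strand setting. Columns summed to about 1000000, depth is unknown, and TPM moves with a few abundant genes.

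Rows of 1 symbol were summed (63568 rows, 56624 symbols). A gene was tested if 3 or more libraries reached 1 TPM, on log2(TPM + 1), pseudocount 1, with limma 3.58.1 in R 4.3.3, 1 mean per group over all libraries, an intensity trend and Benjamini-Hochberg adjustment. The procedure was run on simulated data with independent normal noise around the Parental means. Those data held no shift of all genes and no library that stood apart, so they do not bear on either. Older symbols were matched through RefSeq synonyms, coordinates are from GENCODE 29, and Python 3.11.15 with pandas 2.3.3 and matplotlib 3.10.9 made summaries and figures. Alternatives were another pseudocount, other filters, scalings, variance models and fits, a replicate block, and libraries left out.

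The dioxygenases, lists and named-gene rule (the 10 with the widest range of group means among those of at least 5 TPM, and 10 studied with 2-hydroxyglutarate, by library; a difference for any dioxygenase that passed; up to 2 listed genes per comparison) were chosen with earlier results of these data known. Library values of other dioxygenases, such as KDM2A, EGLN2 and P4HA2, and of CDH5 were added after the values were seen.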

Additional observations from a re-analysis of the deposited data

Results flagged for a closer look

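Of the differences between edited lines, 4 belong to genes whose differences from Parental passed in opposite directions in the 2 lines, each by a test of the difference itself. KDM4C was higher in IDH2R140Q than in IDH2R172K by 0.98 and higher in IDH2R140W than in IDH2R172K by 0.89. The rises of KDM4C in IDH2R140Q and IDH2R140W against Parental were not kept after median-ratio scaling, and that in IDH2R140W did not pass under 17 of 27 alternatives. Its fall in IDH2R172K did not pass under 2 of them. Genes near KDM4C moved with it in IDH2R172K, with a median of −0.72 for its 14 tested neighbours against Parental, and copy number was not measured. PHYH was higher in IDH2R140Q than in IDH2R172K by 1.29, and its rise in IDH2R140Q against Parental, 0.39, did not pass after median-ratio scaling (0.14) or quantile normalisation (0.13). PLOD1 was higher in IDH2R140Q than in IDH2R172K by 0.62. Its rise in IDH2R140Q against Parental did not pass under 20 of 27 alternatives, median-ratio scaling among them. The fall of PLOD1 in IDH2R172K did not pass under 1 of 27. The differences between the edited lines themselves passed under every alternative in all 4 cases.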

How the results depend on the processing

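Of 100 pairs of a gene and a comparison that passed, 47 passed under every alternative and 53 were lost under at least 1. Counts of dioxygenases that passed moved by more than 1.5 times in these cases. In IDH2R140Q against Parental the count was 11 after quantile normalisation. In IDH2R140W against Parental it was 2 with only the compared libraries, 17 with library weights and 9 without Parental replicate 2 and IDH2R140W replicate 3. In IDH2R172K against Parental it was 8 with only the compared libraries. It was 22 for IDH2R140Q against IDH2R140W with library weights, and 14 for IDH2R140Q against IDH2R172K without the 2 libraries named. Leaving out each library in turn gave 15 to 23 in IDH1R132H, 12 to 19 in IDH2R140Q, 3 to 8 in IDH2R140W and 11 to 17 in IDH2R172K against Parental, 10 to 16 for IDH1R132H against the IDH2 lines, 7 to 17 for IDH2R140Q against IDH2R140W, 6 to 11 for IDH2R140Q against IDH2R172K, 5 to 14 for IDH2R140W against IDH2R172K and 22 to 26 for the F test. The single libraries that moved a count by over 1.5 times were IDH2R140W replicate 3 in IDH2R140W against Parental (8 without it), IDH2R140Q replicates 1 and 3 in IDH2R140Q against IDH2R140W (8 and 7), and IDH2R172K replicate 1 and Parental replicate 2 in IDH2R140W against IDH2R172K (5 and 14). PLOD1 in IDH2R140Q against Parental changed sign after median-ratio scaling, to −0.006 (limma adjusted p = 0.961). The cause was not tested in any of these cases. Replicate numbers did not pair the libraries: same-numbered libraries of different groups had a mean correlation of deviations of −0.0056, and 7 of 15 libraries correlated best with their own number. With the number as a replicate block the counts were 19, 16, 3 and 15 against Parental in the order of the lines above, 13 for IDH1R132H against the IDH2 lines, 13, 7 and 8 between IDH2 lines, and 24 for the F test. Unknown depth limits most what can be said of genes near 1 TPM, such as P4HA2.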
